A study of Homo sapiens with 5 samples.

Results

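The genes described here are 9 genes of the epithelial basement membrane and of the anchoring structures that join epithelial cells to it, chosen by name from the 33538 genes of the count tables. They are the laminin chain genes LAMA3, LAMB3, LAMA5, LAMB1 and LAMC1, the collagen IV genes COL4A1 and COL4A2, and the anchoring collagen genes COL17A1 and COL7A1. Their levels were followed over the 5 timepoints of a pulmonary metastasis model of esophageal squamous cell carcinoma (ESCC), and the cells that carried LAMA3 and LAMB3 together were counted. No measured value entered the rule for the 9 genes, but they were chosen with earlier results of these data known.

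The tumor cells were KYSE30-Luc-GFP, the established human ESCC line KYSE30 made to carry luciferase and green fluorescent protein (GFP). Parental cells were taken from culture, and the other 4 libraries hold GFP-positive cells sorted from the lungs of NOD SCID mice (NOD.CB17-Prkdc scid/J) that were 4 to 5 weeks old when injected in the tail vein, and older by the stated time at collection. Cells of 3 mice were pooled at 6 h, of 16 mice at 48 h and of 6 mice at 2 months, and those at 4 months came from 1 mouse. All 5 libraries descend from 1 cell line, the host lacks adaptive immunity, and the lungs were digested with enzymes and depleted of mouse cells before sorting, which the culture was not, so that time in the lung, handling and the library itself cannot be told apart.

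Basement membranes are thin sheets of matrix under epithelia, built on a network of laminins and a network of collagen IV. Each laminin is a trimer of an alpha, a beta and a gamma chain, assembled inside the cell before secretion. Laminin-332 is the laminin of stratified epithelia such as the esophagus, where it ties hemidesmosomes, the anchoring junctions of basal cells, to the matrix and is also laid down by migrating keratinocytes. LAMA3 encodes its alpha chain and LAMB3 its beta chain, and its remaining chain is not analysed here. LAMA5, LAMB1 and LAMC1 encode the alpha, beta and gamma chains of laminin-511, a laminin of most epithelial basement membranes. COL17A1 is a transmembrane collagen of the hemidesmosome, COL7A1 forms the anchoring fibrils below it, and COL4A1 and COL4A2 form the most widespread collagen IV trimer.

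The quality filter kept 19986 of 26712 barcodes, with 9059 parental cells, 1957 at 6 h and 1149 at 48 h, then 3322 at 2 months and 4499 at 4 months, and median depths between 12979 and 39076 unique molecular identifiers (UMIs, each marking 1 captured RNA molecule) per cell. The libraries shared between 1 and 62 cell barcodes by pairs. There is 1 library per timepoint and no replicate, so no test between timepoints was possible, and the 95% intervals given here, exact Poisson for levels and exact binomial (Clopper-Pearson) for shares, cover counting error only. Tumor keratins were present in every library, summed at 1661 to 16687 CPM (the counts of a gene as a share of all UMIs of the cells, scaled to 1000000) over 7 epithelial markers, whereas the 7 endothelial markers summed to at most 1.04 CPM, the 6 alveolar markers to at most 5.84 CPM and the 7 fibroblast markers to at most 13.6 CPM. The 7 immune markers summed to 44.2 CPM at 6 h and 23.5 CPM at 48 h, against 4.43 CPM in the parental cells. Of these, CSF1R was 0.444 CPM in parental cells, 8.51 at 6 h and 12.1 at 48 h. In the same order CD68 was 3.11, 16.4 and 11.2 CPM, LYZ 0.0781, 17.5 and 0, and CD74 0.752, 1.57 and 0.107. PTPRC was at most 0.0427 CPM, and CD3E and MS4A1 at most 0.0922 CPM. The part of the immune markers in the levels below was not tested. Cells holding 3 or more UMIs of fibroblast, endothelial, immune or alveolar markers were 0.408% of parental cells, 3.47% at 6 h and 18.1% at 48 h. At 2 months they were 0.963% and at 4 months 2.04%. Calls at 6 h and 48 h kept their number without these cells. CD74 and LYZ were not among the markers counted for this, so cells carrying only these stayed in.

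The parental culture is a mixture, and the levels are therefore given for all cells and again for signature-positive cells, those with at least 1 UMI of C19orf33, S100A14 or RHOD and at least 1 of CST6, CD44 or TM4SF1, genes from the set that the study used to mark metastasis-initiating cells. By this rule 14.4% of the parental cells were signature-positive, 97.9% at 6 h and 95.6% at 48 h, then 81.1% at 2 months and 98.4% at 4 months. It is a cut on detected UMIs and not a cell type, and the few signature-negative cells at 6 h, 48 h and 4 months were shallow, with medians of 1931, 1818 and 1552 UMIs, so only those of the parental and 2 months libraries are read here.

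All 9 genes were matched to RefSeq promoter windows, 11 in all, and 250 bases before each start were searched on both strands for TGANTCA, the site of AP-1 factors, for GGGCGG, a GC box, and for CCAAT. No match to one of these motifs overlapped a match to another, while 2 GC boxes of LAMB1 overlapped each other. A link between motifs and levels was not tested. Among the members only LAMA3 and LAMB3 held TGANTCA in the windows searched, and 6.57% of the 35116 RefSeq windows contain it. LAMA3 held 2, starting 125 and 69 bases before the start at position 23873020 of chromosome 18. This start lies inside the gene, whose annotated span begins at position 23689453, and no window at that end was searched. LAMB3 held 1, 67 bases before the start at position 209651374 of chromosome 1, whereas its windows at 2 other starts held none. These 2 stretches, from 150 to 31 bases before the start, are shown because the LAMA3 and LAMB3 results lead the account, with TGANTCA in capitals and the sequence read on the strand of the gene (RefSeq, GRCh38.p14).
LAMA3 (chr18:23872870-23872989, plus strand): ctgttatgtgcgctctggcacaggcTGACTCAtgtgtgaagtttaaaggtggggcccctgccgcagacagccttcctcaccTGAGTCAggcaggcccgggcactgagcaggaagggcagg
LAMB3 (chr1:209651405-209651524, minus strand): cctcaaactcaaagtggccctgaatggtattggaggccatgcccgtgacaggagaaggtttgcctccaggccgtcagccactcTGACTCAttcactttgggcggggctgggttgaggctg

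COL4A1 and COL4A2 are neighbors on chromosome 13, transcribed away from each other from RefSeq starts that lie 126 bases apart. The first 100 of these bases, read on the plus strand, are shown because both genes share them, with the CCAAT and the GC box (GGGCGG) in capitals. Over all windows 32.0% contain CCAAT and 42.6% a GC box, so both motifs are common. The matches describe these letters only, and counts at the 3′ end do not show which start was used.
COL4A1 and COL4A2 (chr13:110307158-110307257, plus strand): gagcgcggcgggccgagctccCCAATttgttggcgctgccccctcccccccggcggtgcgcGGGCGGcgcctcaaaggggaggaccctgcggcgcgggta

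LAMA3 and LAMB3 were at their highest in the lung at 6 h and 48 h, at their lowest in the lung at 2 months among signature-positive cells, and intermediate at 4 months. Over all cells, LAMA3 (chr18:23689453-23956222, GENCODE 44) stood at 13.96 CPM in the parental library (95% interval 13.5 to 14.5), 329 at 6 h (323 to 335) and 358 at 48 h (352 to 363), then 7.27 at 2 months (6.69 to 7.88) and 42.2 at 4 months (41.1 to 43.4). LAMB3 (chr1:209614870-209652425) stood at 7.02 CPM (6.66 to 7.39), 751 (742 to 760.4), 880.3 (872 to 889), 15.8 (14.98 to 16.7) and 74.3 (72.8 to 75.8) in the same order. Both early lung libraries thus lay far above the other 3, and no counting intervals overlapped. At 6 h, LAMA3 was 23.6-fold higher than in the parental cells (22.6 to 24.6) and LAMB3 107-fold (101 to 113).

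The folds were smaller against the signature-positive cells of the culture. Among these, parental LAMA3 was 46.8 CPM (44.5 to 49.3) and parental LAMB3 45.1 CPM (42.8 to 47.5), so that the folds at 6 h came to 7.05 for LAMA3 (6.68 to 7.45) and 16.7 for LAMB3 (15.8 to 17.6). At 48 h they were 7.65 (7.26 to 8.08) and 19.5 (18.5 to 20.6). The early lung levels were nearly the same in this class as over all cells, 330.2 and 358 CPM for LAMA3 and 754 and 882 CPM for LAMB3.

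Both chains were far lower at 2 months than at 48 h within the signature-positive cells. LAMA3 was 7.06 CPM at 2 months (6.40 to 7.78), 50.7-fold lower than at 48 h (46.0 to 56.0), and LAMB3 was 21.7 CPM (20.5 to 22.9), 40.7-fold lower (38.5 to 43.1). Against signature-positive parental cells, LAMA3 at 2 months was 6.63-fold lower (5.94 to 7.41) and LAMB3 2.08-fold lower (1.93 to 2.25). At 4 months LAMA3 was 5.98-fold (5.41 to 6.62) and LAMB3 3.43-fold (3.24 to 3.64) above 2 months, at 42.2 and 74.3 CPM. That returned LAMA3 to within 1.11-fold of the signature-positive parental level (1.05 to 1.17, lower at 4 months), while LAMB3 stood 1.65-fold above it (1.56 to 1.74).

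**Figure D1:**
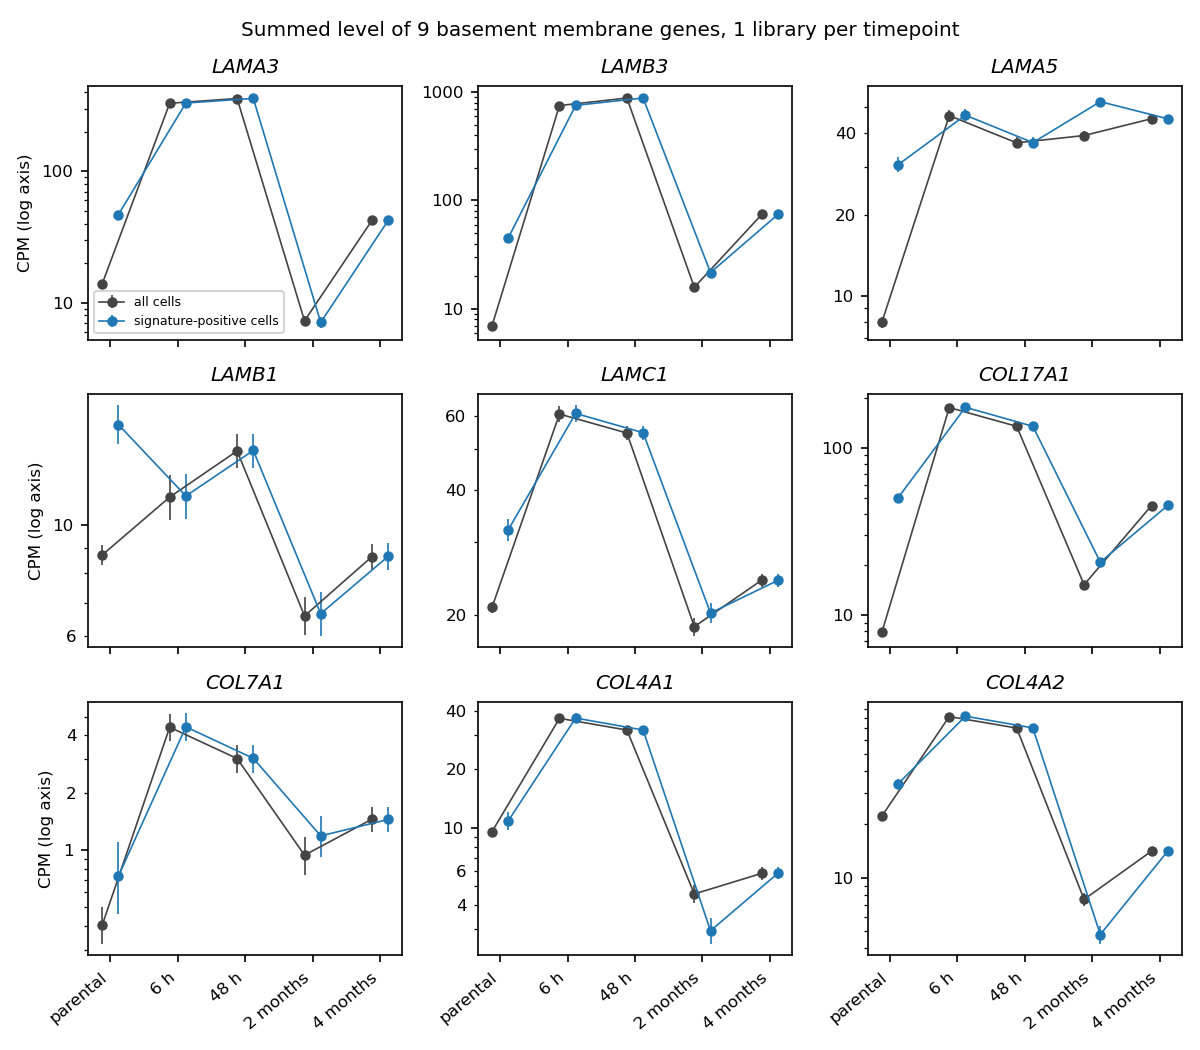
Level of each of the 9 genes (CPM, log axis, a scale of its own in each panel) in the 5 libraries, for all cells (grey) and signature-positive cells (blue); bars are 95% Poisson intervals for counting error and lines only join the points. LAMA3, LAMB3, COL17A1, COL4A1 and COL4A2 peak at 6 h or 48 h in both sets of cells, whereas LAMA5 in signature-positive cells stays between 30.6 and 52.5 CPM.

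COL17A1, the transmembrane collagen that binds laminin-332 at the hemidesmosome, was also highest in the early lung, with its top value at 6 h rather than 48 h. Over all cells COL17A1 (chr10:104031286-104085880) stood at 7.87 CPM in the parental library (7.49 to 8.27), 174 at 6 h (169.7 to 179) and 134 at 48 h (131 to 138), then 15.2 at 2 months (14.3 to 16.04) and 45.2 at 4 months (44 to 46.4). Signature-positive parental cells had 50.2 CPM (47.8 to 52.8), against which 6 h was 3.48-fold higher (3.29 to 3.68), 2 months 2.43-fold lower (2.25 to 2.62) and 4 months 1.11-fold lower (1.05 to 1.17). The early lung excess was therefore smaller for COL17A1 than for LAMB3, at 3.48-fold against 16.7-fold.

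COL7A1, the anchoring fibril collagen, was scarce throughout and never reached the 5 CPM required for a call, so 8 of the 9 genes entered the counts below. It stood at 0.405 CPM in the parental library (0.323 to 0.502), 4.39 at 6 h (3.70 to 5.18) and 3.01 at 48 h (2.54 to 3.55), then 0.940 at 2 months (0.740 to 1.18) and 1.45 at 4 months (1.25 to 1.68). Its position is chr3:48564073-48595329. Among signature-positive cells the 6 h value was 6.05-fold above the parental one, with a wide interval of 3.87 to 9.84, since the latter rested on 23 UMIs. The values at 2 and 4 months in this class, 1.19 and 1.44 CPM, could not be separated by counting (ratio 1.22, 0.920 to 1.63).

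The 3 chains of laminin-511 did not move together. LAMA5 (chr20:62307955-62367312) stood at 7.97 CPM in the parental library (7.59 to 8.37) and between 36.9 and 46.6 CPM in the 4 lung libraries. Among signature-positive cells its 5 levels were 30.6 CPM (28.7 to 32.6), 46.7 (44.4 to 49.1), 37.0 (35.2 to 38.8), 52.5 (50.6 to 54.3) and 45.3 (44.1 to 46.5) from parental to 4 months, with the smallest ratio of highest to lowest among the 9 genes. LAMA5 was the only member whose level at 2 months in this class was above that at 48 h, by 1.42-fold (1.34 to 1.51).

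LAMC1 (chr1:183023420-183145592), whose gamma chain also serves many other laminins, stood at 20.9 CPM in the parental library (20.3 to 21.6), 60.7 at 6 h (58.0 to 63.4) and 54.6 at 48 h (52.5 to 56.8), then 18.8 at 2 months (17.9 to 19.8) and 24.3 at 4 months (23.4 to 25.2). Within signature-positive cells it was 1.90-fold above parental at 6 h (1.76 to 2.05) and 1.58-fold below at 2 months (1.45 to 1.72), both short of the 2-fold limit. LAMB1 (chr7:107923799-108003213) was highest, among signature-positive cells, in the parental library, at 15.8 CPM (14.4 to 17.2), followed by 14.03 at 48 h (12.98 to 15.1) and 11.4 at 6 h (10.3 to 12.6), then 8.65 at 4 months (8.14 to 9.18) and 6.66 at 2 months (6.02 to 7.35). Levels of different genes are not compared further, since 3′ capture differs between genes.

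The collagen IV genes followed the laminin-332 chains into the lung but, unlike them, stood below the parental level at 4 months over all cells. COL4A1 (chr13:110148963-110307157) stood at 9.57 CPM in the parental library (9.15 to 10.0), 36.7 at 6 h (34.6 to 38.8) and 31.9 at 48 h (30.3 to 33.6), then 4.56 at 2 months (4.11 to 5.05) and 5.83 at 4 months (5.41 to 6.26). COL4A2 (chr13:110305812-110513209), whose annotated span overlaps that of COL4A1 at the 5′ ends on the other strand, stood at 22.3 CPM (21.7 to 22.9), 81.2 (78.1 to 84.3), 69.9 (67.5 to 72.3), 7.57 (6.98 to 8.19) and 14.2 (13.5 to 14.8). Among signature-positive cells COL4A1 was 3.39-fold (3.0 to 3.83) and COL4A2 2.41-fold (2.24 to 2.59) above parental at 6 h. At 2 months they were 3.69-fold (3.06 to 4.45) and 7.06-fold (6.19 to 8.08) below it, and at 4 months 1.86-fold (1.63 to 2.12) and 2.39-fold (2.22 to 2.58) below it.

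Counts of UMIs within pairs of genes showed how their proportions shifted. In signature-positive cells there were 0.964 LAMB3 UMIs per LAMA3 UMI in the parental library (0.896 to 1.04), 2.28 at 6 h (2.23 to 2.34) and 2.46 at 48 h (2.42 to 2.51), then 3.06 at 2 months (2.74 to 3.43) and 1.76 at 4 months (1.70 to 1.82). The ratio was lowest in the parental cells and highest at 2 months. COL4A2 UMIs per COL4A1 UMI stayed between 1.63 and 3.12 in the 5 libraries of this class, although COL4A1 was 10.8-fold and COL4A2 14.6-fold lower at 2 months than at 48 h. LAMA5 UMIs per LAMC1 UMI were 0.954, 0.768, 0.676, 2.59 and 1.87 from parental to 4 months, higher in the 2 late libraries than in the other 3.

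Read against the whole transcriptome, a member counts as called when its log2 ratio of CPM, with 1 CPM added, was at least 1 in size. Over all cells 7 of 8 members were called higher than parental at 6 h, where 17.2% of all genes tested were, and 7 of 8 at 48 h, against 19.7%. LAMB1 was the member not called at either time. At 2 months LAMB3 and LAMA5 were called higher (10.4% of all genes) and COL4A2 lower (11.5%), and at 4 months LAMA3, LAMB3, LAMA5 and COL17A1 were called higher (13.4%). No member was called lower at 6 h (27.8% of all genes), at 48 h (24.2%) or 4 months (30.0%). The median log2 ratio of the 9 members, COL7A1 included, was 1.94 at 6 h and 1.64 at 48 h, then -0.15 at 2 months and 0.80 at 4 months, beside medians of -0.29, -0.12, -0.20 and -0.44 over all genes tested. These 4 comparisons share the parental library.

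Within signature-positive cells, LAMA3, LAMB3, COL17A1, COL4A1 and COL4A2 were called higher than parental at 6 h (10.6% of all genes) and at 48 h (12.9%), and none was called lower at either time (12.4% and 9.42%). At 2 months none was called higher (8.82%) and LAMA3, LAMB3, LAMB1, COL17A1, COL4A1 and COL4A2 were called lower, 6 of 8 members where 10.1% of all genes were. At 4 months none was called higher (8.15%) and COL4A2 alone was called lower (14.4%). The calls of LAMB3 at 2 months and of LAMA3 and COL17A1 at 4 months thus turned from higher over all cells to log2 ratios of -1.03, -0.15 and -0.15 in this class.

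Between consecutive lung libraries the members were alike at 6 h and 48 h, lower at 2 months and in part higher again at 4 months. No member was called between 6 h and 48 h over all cells, where 3.24% of all genes were called higher and 1.42% lower, nor in signature-positive cells (3.19% and 1.37%). From 48 h to 2 months LAMA3, LAMB3, LAMC1, COL17A1, COL4A1 and COL4A2 were called lower, 6 of 8, both over all cells (13.0% of all genes) and in signature-positive cells (12.7%). From 2 to 4 months LAMA3, LAMB3 and COL17A1 were called higher over all cells (3.03% of all genes), joined by COL4A2 in signature-positive cells (2.14%), and none was called lower over all cells (9.38%) or in that class (2.35%). Handling differed between culture and lung. FOS, JUN, ATF3 and HSPA1A, stress genes chosen after their values were seen, summed to 1115 CPM in the parental cells, 2050 at 6 h and 3079 at 48 h. The sum was 1890.4 CPM at 2 months and 2886 at 4 months. HSPA1A made up most of the parental sum and changed less than the others, at 971, 865, 996, 1124 and 827 CPM from parental to 4 months. In the same order FOS was 8.36, 232, 649, 359.7 and 1275 CPM. JUN was 114, 625, 933, 317 and 560 CPM, and ATF3 21.96, 328, 501, 89.5 and 224 CPM. The part of these stress genes in the levels of the members was not tested.

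Across the 36 neighboring pairs in the order of the 5 libraries for each gene, the counting interval of the ratio left out 1 in 34 over all cells and in 33 among signature-positive cells. The exceptions over all cells were LAMA5 at 6 h and 4 months and LAMB1 in parental cells and at 4 months. Among signature-positive cells they were LAMA5 at 6 h and 4 months, LAMB1 in parental cells and at 48 h, and COL7A1 at 4 and 2 months. The spread between mice or cultures is not part of these intervals.

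The classes within the parental culture differed sharply in 2 members. LAMB3 was 45.1 CPM in the 1301 signature-positive cells and 0.0980 CPM in the 7758 signature-negative ones, a 460-fold difference (286 to 792) that rested on 17 UMIs in the latter. COL17A1 was 50.2 CPM against 0.185 CPM, 272-fold (192 to 399). LAMA3 and LAMA5 were also lower in signature-negative cells, but at 7.99 CPM and 3.86 CPM they were present, and the differences were 5.86-fold (5.44 to 6.31) and 7.92-fold (7.17 to 8.75). LAMB1, LAMC1, COL4A2 and COL4A1 were 2.13-fold, 1.70-fold, 1.68-fold and 1.16-fold higher in signature-positive cells, so that the classes were closest in COL4A1. Median depths of the classes were 24854 and 22768.5 UMIs, and the genes that set the classes were not among the members.

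At 2 months the 628 signature-negative cells repeated the parental pattern for the laminin-332 chains. They had 0.137 CPM of LAMB3 on 3 UMIs, 0.229 CPM of COL17A1 on 5 UMIs and 7.82 CPM of LAMA3, close to the 7.06 CPM of the signature-positive cells (ratio 0.903, 0.754 to 1.09). Their LAMB3 per LAMA3 was 0.0175 UMIs (0.00358 to 0.0521), against 0.0123 (0.00712 to 0.0197) in the signature-negative parental cells. In these cells LAMA3 was therefore detected almost without LAMB3. COL4A1 and COL4A2 at 2 months were lower in the signature-positive cells, at 2.95 against 8.92 CPM and 4.79 against 15.1 CPM, which is 3.03-fold (2.45 to 3.73) and 3.14-fold (2.67 to 3.69) lower.

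**Figure D2:**
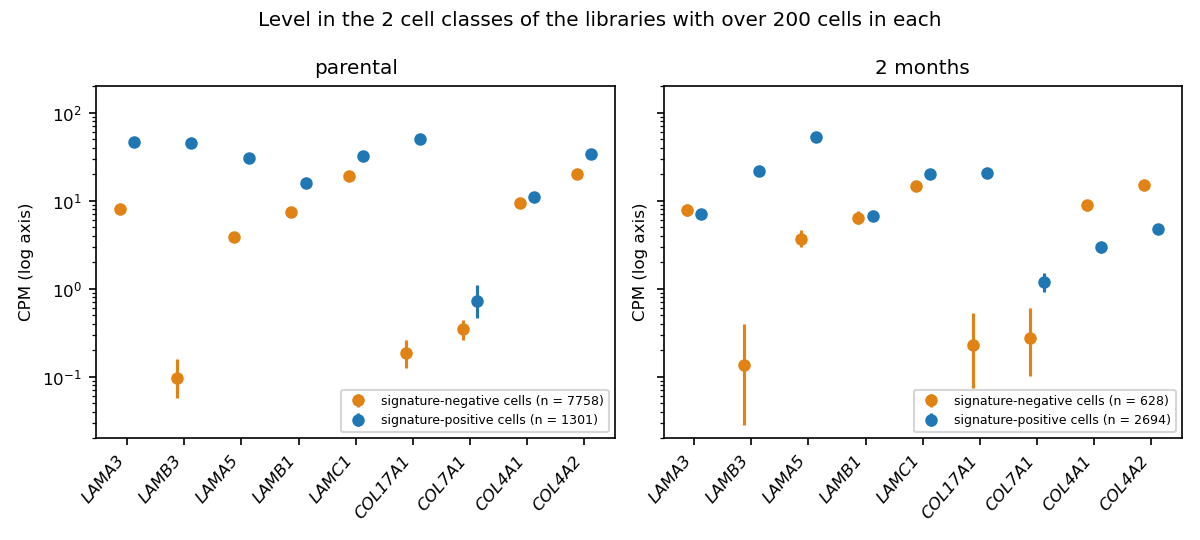
Level of the 9 genes (CPM, log axis) in signature-negative (orange) and signature-positive (blue) cells of the parental and 2 months libraries; bars are 95% Poisson intervals for counting error. LAMB3 and COL17A1 lie below 0.3 CPM in signature-negative cells of both libraries, and COL4A1 and COL4A2 lie higher in signature-negative than in signature-positive cells at 2 months only.

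Cells with UMIs of both LAMA3 and LAMB3 were the rule in the early lung and the exception elsewhere. They made up 5.22% of all parental cells (4.77 to 5.70), 63.1% at 6 h (60.9 to 65.2) and 84.4% at 48 h (82.2 to 86.5), then 4.55% at 2 months (3.86 to 5.31) and 28.0% at 4 months (26.7 to 29.3). Among signature-positive cells the shares were 36.0%, 64.3%, 88.3%, 5.61% and 28.4%. For comparison, both chains were found in 0.0516% of the signature-negative parental cells, in which 0.168% had a LAMB3 UMI at a median depth of 22768.5 UMIs, which sets an upper limit to free LAMB3 RNA in that library. At 6 h and 48 h no deep class without LAMB3 was at hand, the 42 and 51 signature-negative cells having a LAMB3 UMI in 26.2% and 7.84%, so the part of free RNA in those shares was not tested. Such shares rise with depth, and the median depth of all cells was 12979 UMIs at 6 h and 39076 at 48 h.

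With every signature-positive cell thinned at random to 3000 UMIs, the shares with both chains were 2.55% in parental cells (1.76 to 3.56), 31.4% at 6 h (29.3 to 33.6) and 44.5% at 48 h (41.5 to 47.6), then 0.190% at 2 months (0.0617 to 0.443) and 4.09% at 4 months (3.51 to 4.73). The early lung libraries stayed highest and 2 months lowest, whereas parental cells and 4 months, at unthinned shares of 36.0% and 28.4%, stood in the opposite order. The product of the 2 single shares, which is what independent detection would give, was 1.71%, 25.4%, 39.9%, 0.122% and 1.61%. Observed shares therefore exceeded the product by 1.49, 1.23, 1.12, 1.55 and 2.55 times, with 33 and 5 cells behind the values for parental cells and 2 months. A large single share leaves little room for an excess. LAMB3 was found in 58.5% of these cells at 6 h and 76.1% at 48 h, against 16.2% at 4 months. The sizes of the excess are therefore not compared between libraries. At 4 months 41.1% of cells with LAMA3 also had LAMB3, against 13.4% of those without. At 48 h the corresponding shares were 84.8% and 66.3%.

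The balance between the chains differed as well. At 3000 UMIs, LAMA3 without LAMB3 was found in 11.3% of signature-positive parental cells and LAMB3 without LAMA3 in 9.81%. In the lung the latter exceeded the former at every timepoint, with 27.1% against 12.1% at 6 h, 31.5% against 7.95% at 48 h, 6.38% against 1.67% at 2 months and 12.1% against 5.85% at 4 months. Since 3′ capture differs between genes, these shares describe detection and not which chain had more RNA. As a description over signature-positive cells of 1 library, which share capture and depth, Pearson's r between LAMA3 and LAMB3 in log counts per 10000 was 0.31 in parental cells, 0.56 at 6 h and 0.54 at 48 h, then 0.19 at 2 months and 0.57 at 4 months.

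**Figure D3:**
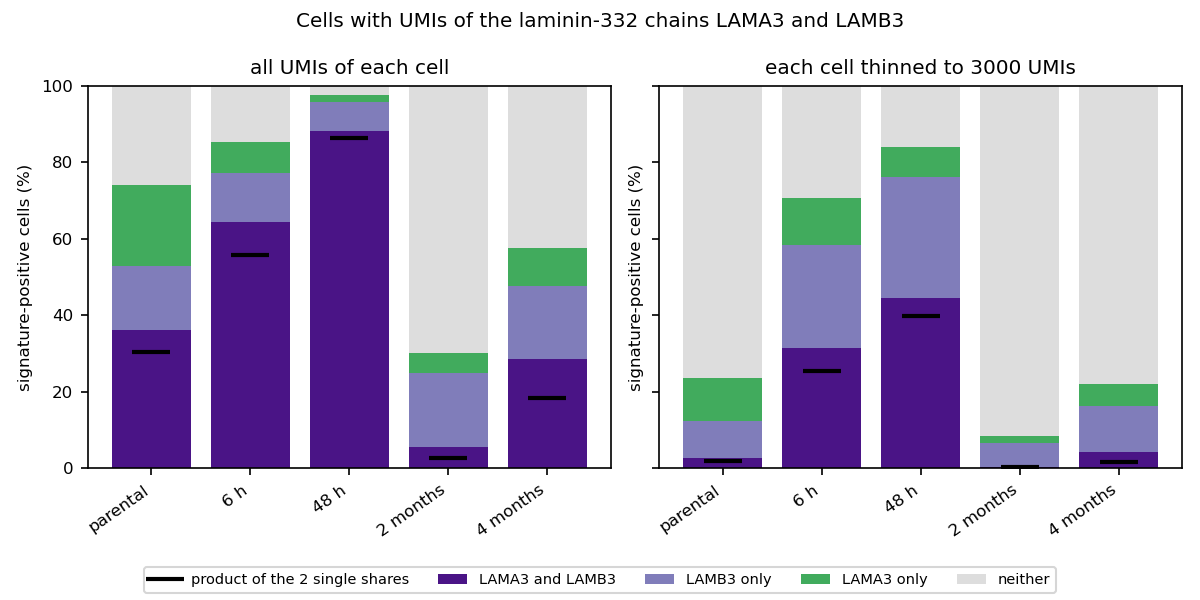
Share of signature-positive cells (%) with UMIs of LAMA3 and LAMB3, of LAMB3 only, of LAMA3 only and of neither in the 5 libraries, from all UMIs (left) and with each cell thinned to 3000 UMIs (right); the black marks give the product of the 2 single shares. The dark bars are highest at 48 h, 88.3% on the left and 44.5% on the right, and lie above the black marks in every library.

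The cells also differed in how many LAMA3 and LAMB3 molecules they held. Of 3000 UMIs, 5 or more were LAMB3 in 20.7% of the signature-positive cells at 48 h and 11.8% at 6 h, in 0.380% at 4 months, and in none of 1295 parental and 2632 cells at 2 months. The largest count in a cell was 578 LAMB3 UMIs and 209 LAMA3 UMIs, both at 48 h, whereas the largest at 2 months were 13 and 9. LAMA5 differed from this, with 1 UMI of 3000 in 8.80% to 14.02% of cells and 5 or more in none, in all 5 libraries. At 4 months the 10% of signature-positive cells with the most LAMB3 held 58.3% of its UMIs. This share ran from 35.5% for LAMA5 to 90.7% for COL4A1 among the members other than the scarce COL7A1. It depends on detection, since LAMB3 was found in 47.6% of these cells, LAMA5 in 60.9% and COL4A1 in only 11.5%.

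Pairs of laminin-511 chains had a lower r, and the part of sparse counts in this was not tested. Among signature-positive cells LAMB1 was at most 15.8 CPM, LAMA5 52.5 and LAMC1 60.9, whereas LAMA3 reached 358 and LAMB3 882 CPM at 48 h. Pearson's r in signature-positive cells was between -0.01 and 0.09 for LAMA5 and LAMB1, between 0.06 and 0.15 for LAMA5 and LAMC1, and between 0.04 and 0.16 for LAMB1 and LAMC1 over the 5 libraries. Cells with UMIs of all 3 chains were 8.76% of signature-positive parental cells, 6.84% at 6 h and 21.9% at 48 h, then 4.57% at 2 months and 8.45% at 4 months. The product of the 3 single shares was 6.97%, 3.10%, 16.3%, 2.50% and 4.81%, below the observed share each time in these cells of unequal depth. After thinning to 3000 UMIs, 1 such cell was left in the parental library and 0 in the lung libraries, which for 4206 cells at 4 months allows a share of up to 0.0713%. The product of the 3 single shares was then 0.0364%, 0.0476%, 0.0662%, 0.0237% and 0.0200% from parental to 4 months. Shares this small leave almost no such cell to find, so these counts cannot tell joint from independent detection. COL4A1 and COL4A2 had an r of 0.12 in parental cells, 0.32 at 6 h and 0.56 at 48 h, then 0.14 at 2 months and 0.40 at 4 months.

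Several of the other members, but not LAMA5 and LAMB1 beyond their intervals, also differed between cells with and without the laminin-332 chains. Signature-positive cells were split after thinning to 3000 UMIs into those with both LAMA3 and LAMB3, with 1 of them and with neither. At 4 months COL17A1 stood at 136 CPM in the 172 cells with both (106 to 171) and 28.6 CPM in the 3280 cells with neither (25.3 to 32.1), and COL4A2 at 79.5 CPM (57.0 to 108) and 7.11 CPM (5.55 to 8.99). COL4A1 was 31.01 CPM (17.7 to 50.4) against 3.15 CPM (2.14 to 4.47), and LAMC1 was 52.3 CPM (34.5 to 76.1) against 18.5 CPM (15.9 to 21.4). LAMA5 was 54.3 CPM (36.1 to 78.4) against 47.2 CPM (43.0 to 51.6), with overlapping intervals. LAMB1 was 17.4 CPM (7.98 to 33.1) against 7.01 CPM (5.46 to 8.87), whose intervals overlapped narrowly. Median depths of these groups were 23532 and 28866.5 UMIs, so the cells with both chains were not the deeper ones.

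At 48 h the same order held for COL17A1, at 181 CPM with both chains (159 to 204) and 68.2 CPM with neither (47.5 to 94.9), for COL4A2 at 103 CPM (87.0 to 121) and 40.9 CPM (25.3 to 62.6), and for COL4A1 at 50.4 CPM (39.5 to 63.5) and 11.7 CPM (4.29 to 25.5). LAMC1 stood at 72.1 CPM (58.9 to 87.5) with both chains and 29.2 CPM (16.4 to 48.2) with neither. LAMA5 stood at 39.9 CPM (30.2 to 51.7) and 40.9 CPM (25.3 to 62.6). At 6 h COL17A1 was 207 CPM (186 to 230) against 96.6 CPM (82.0 to 113), but the cells with both chains were deeper, with a median of 20806 against 9148 UMIs, and the part of depth in that difference was not tested. In parental cells COL17A1 was 60.6 CPM (22.2 to 132) with both chains and 51.2 CPM (43.4 to 60.1) with neither, which the 33 cells with both could not separate. In the 273 parental cells with 1 chain COL17A1 was 84.2 CPM (65.6 to 106.6), above that of cells with neither. Parental COL4A1 was 90.9 CPM (41.6 to 172.6) with both chains, on 9 UMIs, and 11.5 CPM (7.94 to 16.01) with neither. The remaining members had overlapping intervals in parental cells, with both chains or 1 against neither. At 2 months only 5 cells had both chains.

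**Figure D4:**
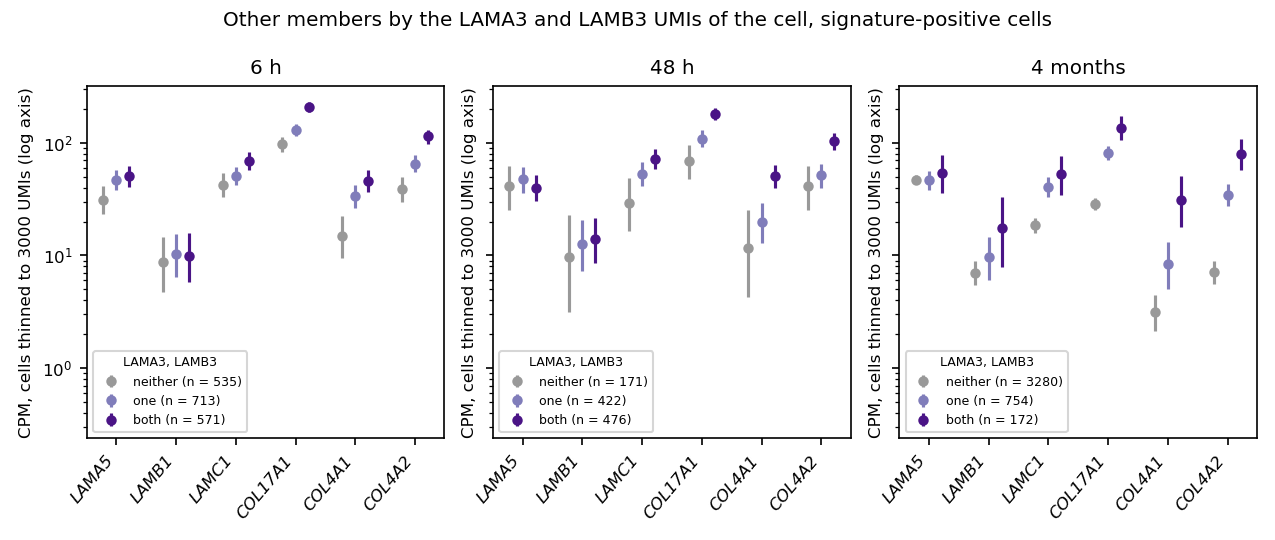
Level of 6 other members (CPM of thinned counts, log axis) in signature-positive cells at 6 h, 48 h and 4 months, split into cells with neither LAMA3 nor LAMB3 (grey), 1 of them (light purple) and both (dark purple) after thinning to 3000 UMIs; bars are 95% Poisson intervals for counting error. COL17A1, COL4A1, COL4A2 and LAMC1 lie higher in cells with both chains, by most at 4 months. The LAMA5 intervals overlap at 6 h, 48 h and 4 months, at 6 h only narrowly (40.7 to 62.6 CPM with both, 23.1 to 41.1 with neither). Those of LAMB1 also overlap at these times, at 4 months only narrowly (7.98 to 33.1 CPM with both, 5.46 to 8.87 with neither). Overlap does not mean equal levels, and LAMA5 at 6 h stood at 50.8 CPM with both chains and 31.2 CPM with neither.

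Signature-positive cells carried a mean of 0.771 of the 9 genes at 3000 UMIs in parental cells, 1.86 at 6 h and 2.13 at 48 h, then 0.397 at 2 months and 0.643 at 4 months. Cells with 4 or more members were 11.4% at 6 h and 14.1% at 48 h, and at most 1.45% in the other libraries. Summed over the 9 genes, the level in these cells was 266 CPM, 1501, 1586, 138 and 261 CPM. The parental and 4 months sums were close, although their makeup differed, with LAMB3 higher and COL4A2 lower at 4 months.

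Genes most like the members were ranked by the mean Pearson r over the 5 libraries, across signature-positive cells, among 3607 genes with at least 20 CPM in each library. Certain genes are not reported here, some of them ranked above those named, and the order is given among the rest. As a description, LAMA3 was most like LAMB3, with a mean r of 0.43 (0.19 to 0.57 over the libraries), followed by FLNA, a filamin that crosslinks actin, at 0.31, the integrin ITGAV at 0.31 and ITGA6, the alpha chain of the laminin-332 receptor of hemidesmosomes, at 0.29. LAMB3 was most like PLEC, the plectin that ties hemidesmosomes to keratin filaments, at 0.38 (0.16 to 0.60), followed by ITGAV at 0.35, ITGA6 at 0.34, the growth factor receptor EGFR at 0.31 and the transcription factor KLF6 at 0.30. LAMA3 itself was below 20 CPM at 2 months and so could not be ranked. COL17A1 was most like ITGA6 at 0.42 (0.33 to 0.52) and DST, the gene of the hemidesmosomal plakin BPAG1, at 0.36. For COL4A1 and COL4A2 FLNA led, at 0.23 and 0.28, and for LAMC1 it was LAMB3 at 0.24. The highest mean r was 0.26 for LAMA5 (with PLEC), 0.13 for LAMB1 and 0.09 for COL7A1, which in counts this sparse is no finding.

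Among 9 genes of hemidesmosomes and laminin receptors, a list written with earlier results of these data known, 6 were called higher than parental at 6 h and 7 at 48 h, then 4 at 2 months and 7 at 4 months over all cells, beside the same 17.2%, 19.7%, 10.4% and 13.4% of all genes. ITGA6 was 403 CPM at 6 h against 45.2 in parental cells, PLEC 351 at 48 h against 40.5, ITGA3, the alpha chain of another laminin receptor, 116 against 11.8, and CD151, a tetraspanin partner of laminin-binding integrins, 424 against 90.7. BCAM, a laminin-binding adhesion molecule, was called lower at 48 h, at 7.20 CPM against 15.7, and was named after its value was seen. Among signature-positive cells 2, 1, 0 and 1 of the 9 were called higher at the 4 times, beside 10.6%, 12.9%, 8.82% and 8.15% of all genes, and BCAM was again the 1 called lower at 48 h. In this class ITGA6 at 6 h was 405 CPM against 223. In that class the median log2 ratio of the list was 0.42 at 6 h and 0.63 at 48 h, beside 1.65 and 1.22 for the 9 members. Of the 9 genes of this list, 5 were called lower and 1, BCAM, higher from 48 h to 2 months in signature-positive cells. Over all genes 12.7% were called lower and 7.65% higher in that comparison.

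Other basement membrane genes went in both directions. Of 8 tested of 12 listed, 5 were called higher and 2 lower than parental over all cells at 6 h and at 48 h. At 2 months 2 and 3 were, and at 4 months 4 and 2 of 7 tested. Over all genes 17.2%, 19.7%, 10.4% and 13.4% were called higher at the 4 times, and 27.8%, 24.2%, 11.5% and 30.0% lower. Among signature-positive cells 2 and 0 of 7 tested were called higher and lower at 6 h, and 3 and 1 of 7 at 48 h. At 2 months the counts were 1 and 2 of 8, and at 4 months 1 and 2 of 7. Shares over all genes in this class were 10.6%, 12.9%, 8.82% and 8.15% higher, and 12.4%, 9.42%, 10.1% and 14.4% lower. FN1, the fibronectin gene, was 125 CPM at 48 h against 9.90 in parental cells, HSPG2, the gene of perlecan, 29.3 against 2.26, and AGRN, the gene of agrin, 51.9 against 8.22. NID1, the nidogen that links laminin to collagen IV, was 0.0307 CPM at 6 h, a single UMI, against 21.9 in parental cells, and FBLN1, a fibulin, 1.90 at 48 h against 20.7. The values from FN1 to FBLN1 are over all cells. In signature-positive cells no gene of the list was called lower at 6 h. With at most 1 UMI at 6 h, NID1 would have been called lower had it reached 5 CPM in signature-positive parental cells. It was therefore under that limit and not among the 7 genes tested there. Within signature-positive cells FN1 was 21.4 CPM in parental cells, 56.9 at 6 h and 125 at 48 h, then 1.14 at 2 months and 34.9 at 4 months, the same order of libraries as LAMA3 apart from parental and 4 months.

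Of the other laminin chains, 3 of 6 were tested over all cells at 6 h and 48 h. LAMB2, an alternative beta chain, was called higher at each time, with 18.96 CPM at 48 h against 3.50 in parental cells. LAMA4 and LAMA1, other alpha chains, were called lower at 6 h, 48 h and 4 months, and at 48 h LAMA4 had 0 UMIs, against 9.31 CPM in parental cells and a limit of 0.0641 CPM that 3 UMIs allow. In signature-positive cells LAMB2 alone of the 6 was tested and was again called higher at each time, from 4.26 CPM in parental cells to 17.4 at 2 months and 16.6 at 4 months. Of the other collagen IV chains, COL4A6 was lower at 48 h (0.727 against 7.39 CPM) and COL4A5 higher at 6 h (19.4 against 8.43 CPM) over all cells. In signature-positive cells 1 of these 4 chains was tested, and it was called neither higher nor lower than parental at any time. The shares of all genes called are those given above for each set of cells.

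Of 12 genes that process collagens and laminins, 11 were tested over all cells. Of these, 4 were called higher and 2 lower than parental at 6 h and at 48 h. At 2 months 1 and 1 were, and at 4 months 3 and 1. Over all genes 17.2%, 19.7%, 10.4% and 13.4% were called higher at the 4 times, and 27.8%, 24.2%, 11.5% and 30.0% lower. Among signature-positive cells 2 and 0 of 10 tested were called higher and lower at 6 h, and 4 and 1 of 10 at 48 h. At 2 months 0 and 3 of 10 were, and at 4 months 2 and 1 of 11, beside the shares of this class given above. The next values are over all cells. BMP1, a protease that trims procollagens and laminin-332 chains, was 46.4 CPM at 48 h against 4.34 in parental cells, P4HA2, a collagen prolyl hydroxylase, 116 against 13.1, and PLOD3 and LOXL2, which modify collagen lysines, 68.9 against 17.4 and 25.8 against 6.57. PXDN, the peroxidase that crosslinks collagen IV, was 0.278 CPM at 48 h against 9.29, and PLOD2, another lysyl hydroxylase, 3.59 CPM at 4 months against 25.4. Within signature-positive cells BMP1 was 9.24 CPM in parental cells, 37.6 at 6 h and 46.4 at 48 h, then 10.6 at 2 months and 16.3 at 4 months, with the early lung libraries above the other 3 as for LAMA3 and LAMB3.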

How the data were processed

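For each of 5 10x Genomics 3′ libraries, 1 per timepoint, the authors deposited a matrix of UMI counts (genes by cell barcodes), not normalized and not yet filtered for quality. Per the labels the reads were processed with Cell Ranger 3 (matrix header version 3.0.2) on GRCh38. Bulk and protein data were not analysed here. The filter of the study was applied (200 to 8000 genes, at least 1000 UMIs, at most 15% mitochondrial UMIs). Counts were summed over cells and scaled to CPM. A call is a log2 ratio of CPM, 1 CPM added, of at least 1 in size among genes with at least 5 CPM in either library. Cells are not replicates, so no test was run. Intervals (95%) cover counting error only, and a count of 0 allows 3 counts. Cells were also thinned at random to 1000 or 3000 UMIs, and the 3000 level left out 157, 123, 76, 88 and 281 shallower cells from parental to 4 months. No doublet caller was run, the upper limit of 8000 genes, by which the study selected single cells, being the step against them, and cells over 2 times the median UMIs of their library were left out as an alternative. Isoforms cannot be told apart by 3′ counts. Named are the 9 members, up to 6 genes of each of 5 lists by the largest log2 ratio, and the 5 genes most like each member by mean r. Values of certain genes are left out here. The members, lists and alternatives were chosen with earlier results of these data known. Python 3.11.15, numpy 2.4.6, scipy 1.17.1, pandas 2.3.3 and matplotlib 3.10.9 were used, the computations were tested on simulated data, positions come from GENCODE 44 by gene identifier and promoter windows from RefSeq. Alternatives were other added CPM, equal weight of cells, other filters, thinning and subsets of cells.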

Additional observations from a re-analysis of the deposited data

Results flagged for a closer look

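COL4A1 and COL4A2 differed between the cell classes in opposite directions at 2 timepoints, which is what brought them here. As log2 ratios of signature-positive to signature-negative cells, COL4A1 stood at 0.20 in the parental library and -1.33 at 2 months, and COL4A2 at 0.72 and -1.47. With 1 library for each timepoint, the difference between the timepoints was not tested. The signature-negative levels of COL4A1 were 9.33 and 8.92 CPM and those of COL4A2 20.2 and 15.1 CPM, whereas the signature-positive levels were 10.9 and 2.95 CPM for COL4A1 and 33.9 and 4.79 CPM for COL4A2. The signature-negative cells at 2 months were deeper than the signature-positive ones, with median UMIs of 36830.5 against 19544.5, and the part of depth was not tested.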

How the results depend on the processing

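The counts of members called at 6 h (7 higher, 0 lower) and 48 h (7 higher, 0 lower) stayed within 1.5 times under every alternative run. At 2 months, where 2 were higher and 1 lower, 1 was higher with 5 CPM added, with at most 10% mitochondrial UMIs or with at least 20 CPM required, and 2 were lower with 0.1 CPM added, without the quality filter or without cells over 2 times the median UMIs, and 3 with every cell weighted the same. In signature-positive cells the counts were 0 higher and 6 lower at 2 months and 0 higher and 1 lower at 4 months, where all cells gave 4 and 0. The log2 ratios of LAMB3 at 2 months (-1.03), of LAMA3 at 4 months (-0.15) and of COL17A1 at 4 months (-0.15) changed sign in that class, as did those of COL17A1 at 2 months (-1.24), of LAMB1 at 6 h (-0.44) and 48 h (-0.16) and of LAMC1 at 4 months (-0.39), which were not called over all cells. At 4 months LAMA3 was 42.2 CPM and COL17A1 45.2 CPM in both sets of cells. Their parental levels were 13.96 and 7.87 CPM over all cells, and 46.8 and 50.2 CPM in signature-positive cells. The cause of the sign changes was not tested. Of the single log2 ratios under the alternatives, 9 changed sign, 7 of them in signature-positive cells and the other 2 for LAMB1 at 4 months, close to 0, without the quality filter and without cells under 0.5% mitochondrial UMIs. The share of cells with both LAMA3 and LAMB3, from parental to 4 months, was 0.0883%, 10.7%, 15.1%, 0.0602% and 0.956% at 1000 UMIs, 0.382%, 31.2%, 44.4%, 0.155% and 4.08% at 3000 UMIs, and 1.66%, 49.4%, 76.0%, 1.05% and 16.1% from 2 UMIs of each. In signature-positive cells it was 36.0% for parental cells, 88.3% at 48 h and 5.61% at 2 months, and without cells over 2 times the median UMIs 52.6% at 6 h. Without cells under 0.5% mitochondrial UMIs, an alternative chosen after seeing the data, it was 89.5% at 48 h and 30.0% at 4 months. No paired analysis was possible because each timepoint has 1 library and no test was run. With 1 library for each timepoint the spread between mice, cultures or libraries is unknown, and depth limits the readings for COL7A1 and for members in cells thinned to 3000 UMIs.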
